A study of Homo sapiens with 9 samples.

Results

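The 37 genes of the human mitochondrial chromosome were taken from RNA-seq of HEK293T cells, a human embryonic kidney line carrying SV40 large T antigen, that stably expressed WT, G245S or R273H p53. They are the rows whose chromosome entry begins with MT, 37 of 78986 rows, and comprise 13 mRNAs, 2 rRNAs and 22 tRNAs. Each of the 3 groups had 3 biological replicates, grown in serum and puromycin. WT p53 served as the control, and no cells without introduced p53 were analysed here. G245S is a substitution described as structural and R273H one described as a DNA-contact substitution, both in the DNA-binding domain of p53. The p53 forms were introduced by lentivirus with puromycin selection, 1 line for each form, so line and p53 form cannot be told apart.

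Library totals ran from 7325514 to 9667306 counts in 8 libraries and reached 1486315 counts in WT replicate 3. That library fell under the depth limit of 4096044 counts and was left out of the comparisons, which therefore set 3 libraries of a mutant against 2 of WT. The study also left out a WT replicate of its RNA-seq, for poor quality and few reads, and did not say which. The values of WT replicate 3 are given beside the others, and each comparison with WT is also given with all 3 WT libraries. Of the epithelial and HEK293 markers, in the other 8 libraries KRT18 lay between 56.9 and 69.5 CPM (counts per 1000000 counts of a library), KRT8 between 9.40 and 12.4 and CDH2 between 73.4 and 85.1, and KRT19, EPCAM and PAX2 reached at most 1.33, 3.41 and 4.92 CPM. WT replicate 3 stood apart in 4 epithelial markers, with KRT18 at 154, KRT8 at 52.5, KRT19 at 32.6 and EPCAM at 13.5 CPM, and had the lowest CDH2 at 67.3 CPM, and it enters every comparison made with all 3 WT libraries. The part of these markers in its mitochondrial values was not tested. Of the markers of cells that the cultures should lack, CD3E was at 0 in every library, HBB, PECAM1, PTPRC and ALB were at most 2.69 CPM, and COL1A1 lay between 12.9 and 36.9 CPM.

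Mitochondrial DNA is a small circle kept in many copies per cell. Both strands are transcribed almost in full into long precursors by the RNA polymerase POLRMT with the factors TFAM and TFB2M, and the tRNAs that lie between most of the other genes mark where the precursors are cut. The mRNAs encode core subunits of respiratory complexes I, III and IV and of ATP synthase, and the rRNAs and tRNAs serve the mitochondrial ribosome. Most of the mRNAs, though not all, are polyadenylated and held by the LRPPRC and SLIRP proteins. Genes annotated on the + strand come from the heavy-strand promoters and those on the − strand from the light-strand promoter. Genes of a strand share a precursor, and each mature RNA is then processed and degraded at a rate of its own.

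The + strand carried 28 of the 37 genes, namely both rRNAs, 12 mRNAs and 14 tRNAs, and the − strand carried MT-ND6 and 8 tRNAs. All 37 had the same coordinates, strand and name in GENCODE v44 on GRCh38. They have no introns, and the chromosome of 16569 bases leaves little space between them. Of the 13 mRNAs, 7 ended in a full stop codon, 5 ended in T and 1, MT-ND1, ended in TA, the rest of the stop codon being supplied by the poly(A) tail. The stretches printed here show where neighbouring genes share bases or meet with none between them, for genes described in the results that follow. They are written along the + strand in GRCh38, from its reference sequence. MT-ATP8 and MT-ATP6 share 46 bases (MT:8527-8572, capitals, within MT:8515-8584), and MT-ND4L and MT-ND4 share 7 (MT:10760-10766, capitals, within MT:10748-10778).
MT-ATP8 and MT-ATP6: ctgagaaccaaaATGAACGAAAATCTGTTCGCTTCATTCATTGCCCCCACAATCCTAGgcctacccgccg
MT-ND4L and MT-ND4: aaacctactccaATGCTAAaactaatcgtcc
MT-ND5 and MT-ND6 end against each other on opposite strands with no base between them (MT:14134-14163, capitals the last bases of MT-ND6, which is read from the other strand).
MT-ND5 and MT-ND6: ctcctaatcacataaCCTATTCCCCCGAGC
The last part of MT-RNR2 runs into MT-TL1 (MT:3210-3304, capitals MT-TL1), and MT-ND1 runs into MT-TI (MT:4243-4331, capitals MT-TI). MT-TI in turn shares its last 3 bases with MT-TQ on the other strand.
MT-RNR2 and MT-TL1: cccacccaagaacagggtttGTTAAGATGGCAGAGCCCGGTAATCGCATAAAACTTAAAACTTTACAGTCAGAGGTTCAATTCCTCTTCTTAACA
MT-ND1 and MT-TI: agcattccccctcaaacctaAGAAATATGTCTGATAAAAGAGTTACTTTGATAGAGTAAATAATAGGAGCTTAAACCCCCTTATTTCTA
The cluster MT-TH, MT-TS2 and MT-TL2 lies between MT-ND4 and MT-ND5 (MT:12138-12336, capitals MT-TS2) and held both the highest and the lowest tRNA per length.
MT-TH, MT-TS2 and MT-TL2: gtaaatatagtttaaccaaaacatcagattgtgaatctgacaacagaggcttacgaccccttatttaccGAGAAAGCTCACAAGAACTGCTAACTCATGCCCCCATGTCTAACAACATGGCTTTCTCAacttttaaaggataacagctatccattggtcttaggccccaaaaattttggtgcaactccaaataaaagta

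Counts per length of the 13 mRNAs differed 54.0-fold, and 12 of the 13 are annotated on one strand. Levels are given here as CPM after TMM scaling, per kb of gene where genes are compared, as the mean of the 9 libraries. They are not corrected for reads shared with nuclear copies, described below. MTND1P23 held 45.8% to 58.4% as many counts as MT-ND1, and MTCO1P12 22.7% to 35.9% as many as MT-CO1. MT-CO3, a core subunit of complex IV, was highest at 14505 CPM per kb, followed by MT-ATP6 of ATP synthase at 9689 and MT-ND3 of complex I at 9309. MT-CO2 stood at 6576, MT-ND4 at 4105, MT-CYB at 3091, MT-ND2 at 2888 and MT-ND1 at 2456 CPM per kb. The lower group was MT-ATP8 at 924, MT-CO1 at 782 and MT-ND4L at 514. MT-ATP8 shares a transcript with MT-ATP6, and MT-ND4L shares one with MT-ND4. Within such a pair the values are counts per length and do not compare amounts of RNA. Between other genes too they are counts over the annotated gene only. Before the next + strand gene lie 598 bases after MT-ND5, 72 after MT-CO1 and 25 after MT-CO2, and none after the other + strand mRNAs. How reads were spread along a transcript, and its part in the order of the genes, was not tested. The lowest were MT-ND6, the mRNA of the − strand, at 269.9, and MT-ND5, its + strand neighbour, at 268. MT-RNR2 lay at 8691 and MT-RNR1 at 4902 CPM per kb, within the range of the mRNAs, in libraries that were made from mRNA. Members of one complex were spread over the range: the 3 complex IV mRNAs ran from 782 to 14505 and the 7 complex I mRNAs from 268 to 9309 CPM per kb. The 22 tRNAs ran from 1.19 to 278 CPM per kb with a median of 45.2, against a median of 2888 for the 13 mRNAs. A tRNA is 59 to 75 bases long and reads shorter than 50 bases were removed, and the part this played in the tRNA counts was not tested.

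**Figure D1:**
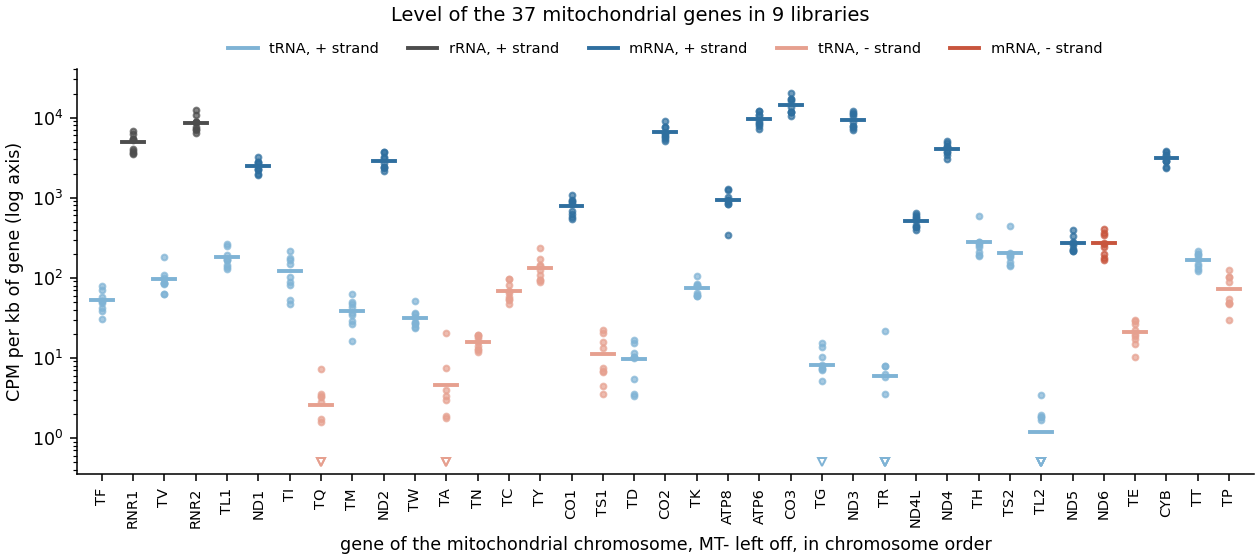
Level of each of the 37 genes, as TMM-scaled CPM per kb of gene on a log axis, against the genes in chromosome order. Points are the 9 libraries, bars their mean, colours the kind of RNA and its strand, and open triangles at the bottom libraries at 0 after rounding; the mRNAs ran from 268 (MT-ND5) to 14505 (MT-CO3), and most tRNAs lay below every mRNA.

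Mitochondrial genes held 4.47% to 8.34% of all counts. The share was 4.47% and 5.71% in WT replicates 1 and 2, 8.34%, 6.42% and 5.55% in G245S, and 6.86%, 5.25% and 4.83% in R273H, and 7.02% in WT replicate 3. The groups overlapped, since of the other 6 libraries, 3 lay between the lowest and the highest G245S library, and WT replicate 1 and R273H replicates 2 and 3 lay below it. G245S averaged 6.77% ± 1.43 (SD, n = 3) and WT 5.09% ± 0.871 (n = 2), a difference of 1.68 percentage points (exact permutation test, two-sided, p = 0.40), where 3 libraries against 2 cannot go below 0.20. R273H averaged 5.64% ± 1.07 (n = 3) and differed from WT by 0.555 points (exact p = 0.80) and from G245S by -1.12 points (exact p = 0.40), where 3 against 3 cannot go below 0.10. With all 3 WT libraries the WT mean was 5.73% ± 1.27, and the differences were 1.04 for G245S (exact p = 0.50) and -0.088 for R273H (exact p = 0.90). In bulk RNA a larger share from more mitochondrial RNA per cell and one from less nuclear-encoded mRNA cannot be told apart.

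**Figure D2:**
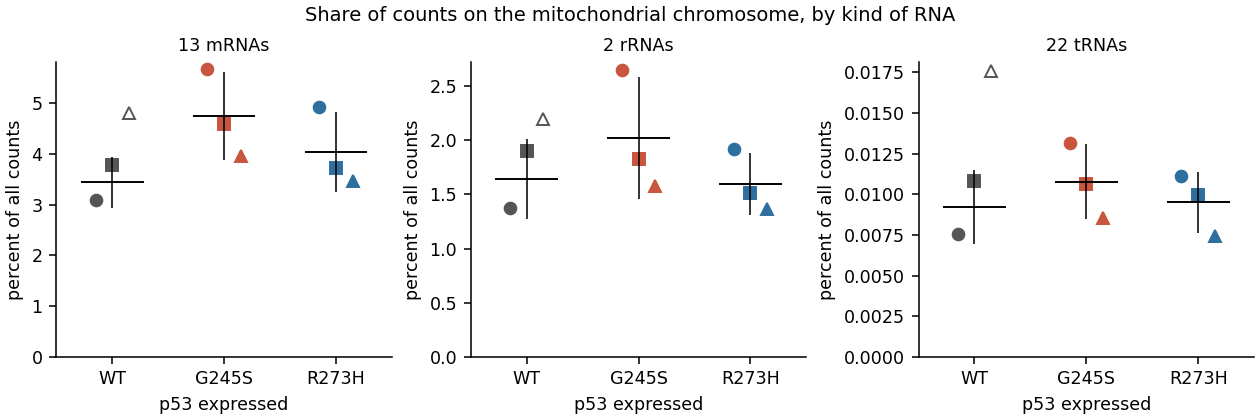
Percent of all counts on the 13 mRNAs, the 2 rRNAs and the 22 tRNAs (axes differ and start at 0), by p53 form. Circles, squares and triangles are replicates 1, 2 and 3, the open triangle is WT replicate 3, and lines give the mean ± SD of the libraries compared; in all 3 panels the groups overlap and WT replicate 3 lies above the other WT libraries.

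In G245S the log2 fold changes of the 13 mRNAs from WT replicates 1 and 2 were positive, with MT-ATP8 the exception. For most of these mRNAs the G245S and WT libraries overlapped. The median of the 13 fold changes was 0.44, or 1.36-fold, against 0.0034 for all 15893 genes tested. Of the 13, 12 were positive, as were 50.8% of all genes. The 13 shifted together from library to library and are not independent. With all 3 WT libraries the median was 0.19. The exception, MT-ATP8, shares a transcript with MT-ATP6, so their values are counts over parts of the same RNA. None of the 30 mitochondrial genes tested (15 mRNAs and rRNAs and 15 tRNAs) was called at an adjusted p under 0.05 by edgeR's quasi-likelihood test, where 0.126% of all genes were called, nor was any called by DESeq2. The lowest adjusted p among them was 0.471. At an unadjusted p under 0.05 there were 10, all higher in G245S, where 6.66% of all genes passed: 8 mRNAs and the tRNAs MT-TI and MT-TP. Without the filter on low counts 10 were called, 9 higher and MT-ATP8 lower, where 0.411% of all genes were called.

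MT-CO3, of complex IV, had the largest fold change of the mRNAs in G245S. MT-CO3 (MT:9207-9990) stood at 8178 and 9338 CPM in WT, 16115, 12819 and 10535 in G245S, and 13522, 9157 and 9185 in R273H. All 3 G245S libraries lay above both compared WT libraries, with a log2 fold change of 0.60 ± 0.17 (SE; edgeR adjusted p = 0.479). MT-CO2 (MT:7586-8269), which holds the copper centre that receives electrons from cytochrome c, stood at 3539 and 4262 in WT, 6142, 5273 and 4411 in G245S, and 5237, 3965 and 3679.5 in R273H. It lay higher in every G245S library than in any WT library, replicate 3 included at 3975, and its log2 fold change was 0.44 ± 0.15 (edgeR adjusted p = 0.602). MT-CO1 (MT:5904-7445), the catalytic subunit of complex IV, stood at 826 and 1272 in WT, 1649.7, 1388 and 971 in G245S, and 1364, 1057 and 897 in R273H, so that the groups overlapped, at 0.36 ± 0.20 (edgeR adjusted p = 0.797). MT-ATP6 (MT:8527-9207), part of the proton channel of ATP synthase, stood at 4956 and 5714 in WT, 8349.7, 7334 and 6210.0 in G245S, and 7424, 5849 and 5297 in R273H. The lowest G245S value was above both compared WT values and below the 8253 of WT replicate 3, at 0.46 ± 0.15 (edgeR adjusted p = 0.562).

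The log2 fold changes of the 7 complex I mRNAs and MT-CYB in G245S ran from 0.14 for MT-ND4L to 0.47 for MT-ND6. MT-ND1 (MT:3307-4262) and MT-ND2 (MT:4470-5511), membrane-arm subunits of complex I, had log2 fold changes of 0.39 ± 0.15 and 0.45 ± 0.16. MT-ND2 stood at 2258 and 2490.3 in WT, 3922, 3272 and 2512 in G245S, and 3380.2, 2842 and 2479 in R273H, with the lowest G245S library just above the higher of the 2 compared WT ones. MT-ND1 stood at 1831 and 2194 in WT, 3086, 2656 and 2102 in G245S, and 2634, 2158 and 1905 in R273H, where the groups overlapped. MT-ND3 (MT:10059-10404), a small subunit at the junction of the arms of complex I, stood at 2417 and 2739.6 in WT, 3949.9, 3792 and 2736 in G245S, and 3639, 3031 and 2547 in R273H, the lowest G245S value a little below the higher WT one, at 0.45 ± 0.15. MT-ND4 (MT:10760-12137), one of the pump subunits, stood at 4202 and 5128 in WT, 7068, 5938 and 5901 in G245S, and 6149.9, 5082 and 4706 in R273H, and all 3 G245S libraries lay above both compared WT libraries, though R273H overlapped both groups, at 0.44 ± 0.14. MT-ND4L (MT:10470-10766), which shares a transcript with MT-ND4, stood at 128 and 155 in WT, 178, 169 and 117 in G245S, and 168, 137 and 129 in R273H; the lowest of the 8 was a G245S library, and the log2 fold change was 0.14 ± 0.15. MT-ND5 (MT:12337-14148), the outermost pump subunit, stood at 388 and 458 in WT, 604, 508 and 396 in G245S, and 494, 399.6 and 413 in R273H, at 0.26 ± 0.15. MT-CYB (MT:14747-15887), cytochrome b and the only mitochondrially encoded subunit of complex III, stood at 2707 and 3285 in WT, 4408, 3892 and 3238 in G245S, and 3947, 3233 and 2745 in R273H, at 0.37 ± 0.15. The lowest edgeR adjusted p among these 7 was 0.559, for MT-ND4. Among the 15 mRNAs and rRNAs, 5 lay wholly above the compared WT libraries (MT-CO2, MT-CO3, MT-ATP6, MT-ND2 and MT-ND4), as did 11.3% of all genes tested. With WT replicate 3 included only MT-CO2 did, as did 6.47% of all genes. In that library MT-CO2 was low beside the other genes, at -0.58 from the median of the 15 on the log2 scale, each gene relative to its own mean. No other of the 15 stood as far from that median there.

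**Figure D3:**
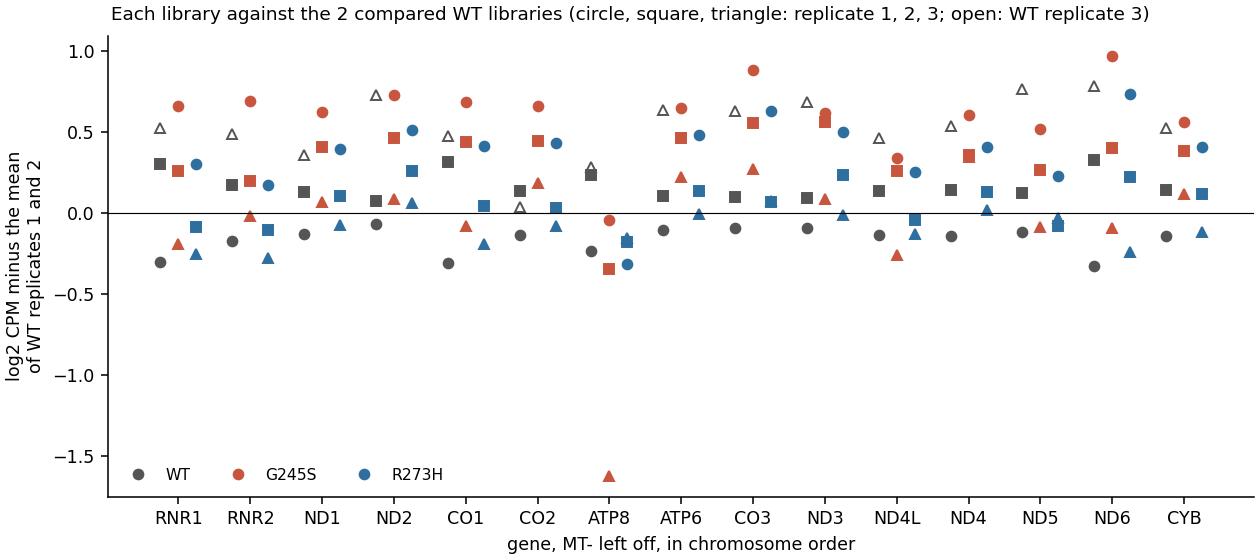
Log2 CPM of each library minus the mean of WT replicates 1 and 2, for the 2 rRNAs and 13 mRNAs in chromosome order. Circles, squares and triangles are replicates 1, 2 and 3 of WT (grey), G245S (red) and R273H (blue), and WT replicate 3 is open; replicate 1 of G245S was the highest G245S library for all 15 genes, and MT-ATP8 in G245S replicate 3 was the lowest point.

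In R273H the median log2 fold change of the 13 mRNAs from WT lay nearer to 0 than in G245S. It was 0.15, or 1.11-fold, against 0.0023 for all 16022 genes tested, with 12 of 13 positive (all genes 50.7%) and MT-ATP8 the exception. Its direction rested on single libraries: without R273H replicate 1 the median was -0.0035, and with all 3 WT libraries it was -0.013. Of 29 mitochondrial genes tested none was called by edgeR, where 0.137% of all genes were, and none by DESeq2, and the lowest adjusted p was 0.811. At an unadjusted p under 0.05 there was 1, where 6.11% of all genes passed. It was MT-ND2, at 0.29 ± 0.13 (edgeR adjusted p = 0.811). MT-CO3 followed at 0.28 ± 0.17, MT-ND6 at 0.26 ± 0.22 and MT-ND3 at 0.25 ± 0.14, while MT-ND4L at 0.032 ± 0.12 and MT-ND5 at 0.045 ± 0.11 lay within 1 SE of no change. No mRNA or rRNA separated R273H from WT in all libraries: R273H replicate 1 was the highest of the 3 R273H libraries for all 15 except MT-ATP8, and R273H replicate 3 lay near WT.

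Between the mutants, the log2 fold changes of the 13 mRNAs in R273H from G245S were negative, again with MT-ATP8 the exception. The libraries of the mutants overlapped for every mRNA. The median of the 13 fold changes was -0.22 (0.856-fold) against -0.0048 for all 15614 genes tested. Of the 13, 12 were negative, as were 51.7% of all genes. No mitochondrial gene of 30 was called by edgeR, where 0% of all genes were, or by DESeq2, and the lowest adjusted p was 0.994. Without the filter on low counts MT-CO3 and MT-RNR2 were called lower, where 0.346% of all genes were called. At an unadjusted p under 0.05 there were 4, all lower in R273H, where 4.75% of all genes passed. These were MT-RNR2 at -0.39 ± 0.16, MT-CO2 at -0.30 ± 0.14, MT-ND4 at -0.25 ± 0.12 and the tRNA MT-TP at -0.74 ± 0.34. MT-ATP8 was at 0.30 ± 0.24. The 3 comparisons share libraries, so their values are not independent of each other.

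The distance between the mutants and WT depended on which WT libraries were used. With all 3 WT libraries the median of the 13 mRNAs was 0.19 for G245S (10 of 13 positive) and -0.013 for R273H (5 of 13 positive). No mitochondrial gene was called in either, where 0.0641% and 0.102% of all genes were. At an unadjusted p under 0.05 there were 2 for G245S, where 5.81% of all genes passed, and 1 for R273H, where 5.38% did. They were MT-CO2, higher in G245S at 0.43 ± 0.14, and MT-ATP8, lower in both mutants at -0.62 ± 0.29 in G245S and -0.31 ± 0.13 in R273H. In G245S the other 12 mRNAs came closer to no change when WT replicate 3 was added.

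**Figure D4:**
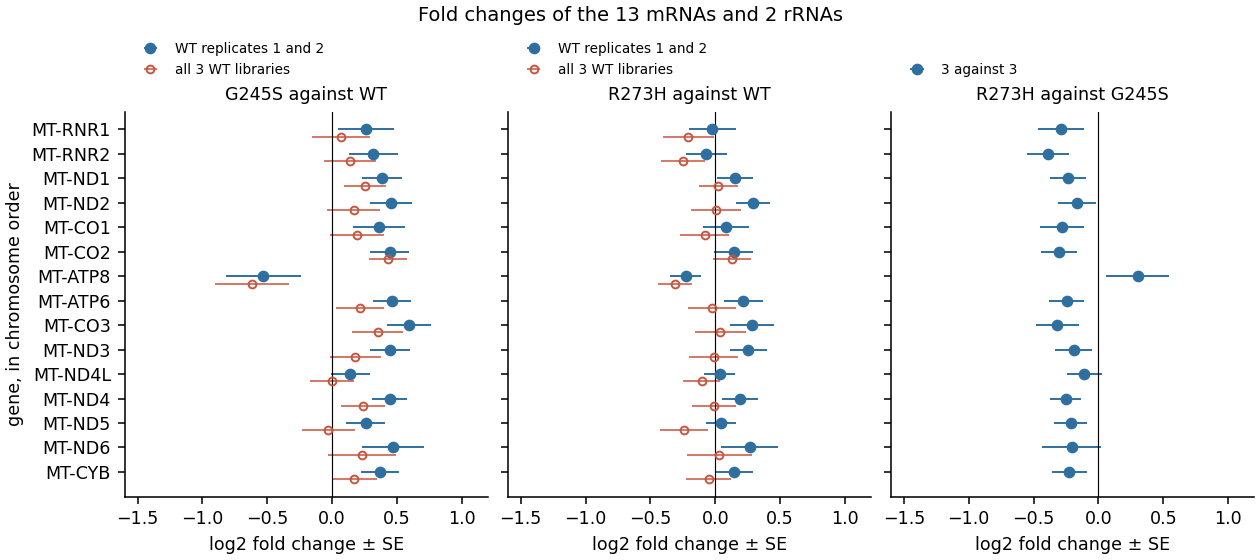
Log2 fold change ± SE of the 2 rRNAs and 13 mRNAs in the 3 comparisons, from edgeR. Filled points compare with WT replicates 1 and 2 (or 3 G245S libraries), open points with all 3 WT libraries; with replicates 1 and 2 MT-ATP8 is the only mRNA below 0 in both comparisons with WT, and with all 3 WT libraries every point lies lower.

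Libraries of one condition had larger SDs for mitochondrial RNAs than for nuclear RNAs at least as abundant as the lowest of them. The SD of log2 CPM within a group had a median over the 15 mRNAs and rRNAs of 0.19 in WT (n = 2), 0.31 in G245S and 0.25 in R273H (n = 3 each). For the 1231 nuclear genes at or above the lowest of the 15 in mean CPM, it was 0.092, 0.093 and 0.087. Abundant nuclear copies of mitochondrial genes, such as MTND1P23, were among these nuclear genes. Of those nuclear genes, 1.54% in G245S and in R273H, and 9.91% in WT, had an SD at or above the mitochondrial median. The 15 genes shifted together from library to library and are not independent. Relative to the compared WT libraries the median of the 15 stood at -0.15 and 0.15 in WT replicates 1 and 2, at 0.62, 0.39 and 0.032 in G245S, and at 0.41, 0.089 and -0.072 in R273H on the log2 scale, and at 0.60 in WT replicate 3. The highest and lowest of the 8 compared libraries were thus 1.71-fold apart. Once each library's own median was removed, the median SD fell to 0.063 in WT, 0.087 in G245S and 0.046 in R273H.

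A few genes departed from their library. In both mutants MT-ATP8 had the largest SD after removal of the library median, 0.55 in G245S, where replicate 3 was far below the others, and 0.33 in R273H, next to 0.12 in WT. MT-ND6 stood at 0.25 in WT, 0.24 in G245S and 0.25 in R273H, and was highest of the 15 in WT. MT-CO1, at 0.23, and MT-RNR1, at 0.22, departed between the compared WT libraries, both being higher in replicate 2. In WT replicate 3 MT-CO2 stood at -0.58 from its library on the log2 scale, where MT-ND1 stood at -0.24 and MT-ND5 at 0.26. MT-CYB and MT-ND1 kept close to their library, with SDs between 0.011 and 0.074 in the 3 groups.

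**Figure D5:**
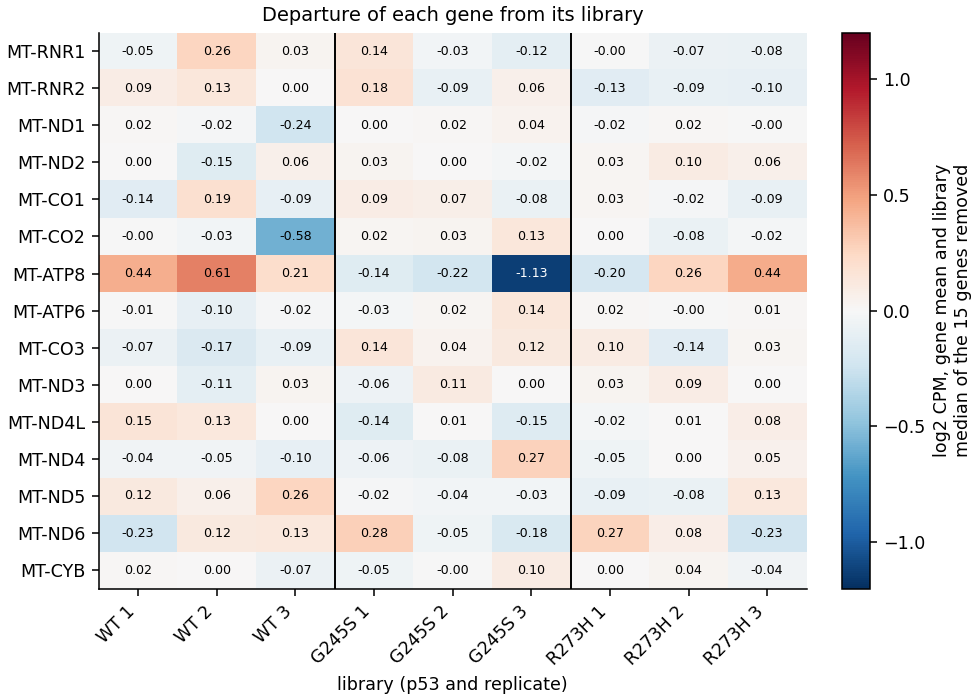
Departure of each of the 15 genes from its library, as log2 CPM with the gene's mean over the 8 compared libraries and then the library's median of the 15 removed; rows are genes in chromosome order and columns the 9 libraries. Blue cells are below and red cells above the library; MT-ATP8 runs from -1.13 in G245S replicate 3 to 0.61 in WT replicate 2, and MT-CO2 is at -0.58 in WT replicate 3.

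MT-ATP8 (MT:8366-8572), a small membrane subunit of ATP synthase, is made from the same transcript as MT-ATP6 and overlaps it by the bases printed in capitals above. It stood at 185 and 256 CPM in WT, 211, 171 and 70.7 in G245S, and 175, 192 and 196 in R273H, and at 264 in WT replicate 3. The R273H values lay between 175 and 196, and the groups overlapped, while G245S replicate 3 was far below every other library. The log2 fold change was -0.53 ± 0.29 in G245S (edgeR adjusted p = 0.784) and -0.23 ± 0.12 in R273H (edgeR adjusted p = 0.878). As a share of MT-ATP6 counts, a pair picked after its values were seen and therefore not tested, MT-ATP8 was at 3.74% and 4.47% in WT replicates 1 and 2, 2.53%, 2.33% and 1.14% in G245S, and 2.36%, 3.29% and 3.69% in R273H, and at 3.20% in WT replicate 3. The 3 G245S shares lay below all WT shares, and R273H overlapped both groups. The counts behind MT-ATP8 averaged 1392 a library and its length is 207 bases with 46 in the overlap. Without G245S replicate 3 its log2 fold change in G245S was -0.20. The part of read position along the shared transcript, or of how the shared bases were assigned, was not tested.

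The rRNAs, MT-RNR1 (MT:648-1601, the 12S rRNA of the small subunit) and MT-RNR2 (MT:1671-3229, the 16S rRNA of the large subunit), had log2 fold changes from WT below the mRNA median in both mutants. MT-RNR1 stood at 3368 and 5109 CPM in WT, 6562, 4959.9 and 3627 in G245S, and 5116, 3908 and 3474 in R273H. MT-RNR2 stood at 10784 and 13689 CPM in WT, 19585, 13903 and 11995 in G245S, and 13674, 11283 and 10010.0 in R273H. The groups overlapped for both, with G245S replicate 1 highest, and the log2 fold changes were 0.26 ± 0.22 and 0.32 ± 0.19 in G245S and -0.023 ± 0.18 and -0.068 ± 0.16 in R273H.

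The ratio of rRNA to mRNA counts within a library does not depend on scaling. It was 0.446 and 0.502 in WT replicates 1 and 2, 0.468, 0.398 and 0.397 in G245S, and 0.389, 0.408 and 0.393 in R273H, and 0.458 in WT replicate 3. All 3 R273H ratios lay below all 3 WT ratios, and G245S overlapped WT through replicate 1. The libraries were made from mRNA, and the part of rRNA capture in these ratios was not tested. On the log2 scale R273H differed from WT by -0.26 (exact permutation test, two-sided, p = 0.20), the smallest p that 3 against 2 allow, and by -0.24 with all 3 WT libraries (exact p = 0.10), the smallest that 3 against 3 allow. G245S differed from WT by -0.17 (exact p = 0.40) and by -0.16 with all 3 WT libraries (exact p = 0.30), and R273H from G245S by -0.082 (exact p = 0.50). The 3 comparisons were made for this ratio, the share of counts and the MT-ND6 ratio below, and in none could so few libraries pass 0.05.

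On the − strand, MT-ND6 (MT:14149-14673), a membrane subunit of complex I, is the one mRNA. It stood at 87.3 and 137 CPM in WT, 214, 144 and 103 in G245S, and 182, 128 and 92.6 in R273H, with 188 in WT replicate 3, and the groups overlapped. The log2 fold change was 0.47 ± 0.24 in G245S (edgeR adjusted p = 0.768) and 0.26 ± 0.22 in R273H (edgeR adjusted p = 0.970). As a share of the counts of the 13 mRNAs it was 0.276% and 0.366% in WT replicates 1 and 2, 0.382%, 0.305% and 0.261% in G245S, and 0.377%, 0.343% and 0.270% in R273H, and 0.376% in WT replicate 3. The groups covered nearly the same range. The log2 ratio of MT-ND6 to the 12 + strand mRNAs differed from WT by -0.026 in G245S (exact permutation test, two-sided, p = 1.0) and by 0.041 in R273H (exact p = 1.0), and between the mutants by 0.067 (exact p = 0.80), each less than the pooled SD between libraries of 0.27. With all 3 WT libraries the differences were -0.11 (exact p = 0.70) and -0.041 (exact p = 0.80). No shift between the strands was detectable with this many libraries. Whether MT-ND6 was captured like the + strand mRNAs in libraries made from mRNA was not tested.

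The 22 tRNAs, the adaptors of mitochondrial translation, held 15.4 to 25.1 of every 10000 mitochondrial counts. Of these 14 averaged at least 10 counts a library and 8 fewer, 4 of which averaged under 3. Per length MT-TH was highest at 278 CPM per kb, followed by MT-TS2 at 205 and MT-TL1 at 179.8. MT-TH (MT:12138-12206), the histidine tRNA, stood at 14.4 and 16.7 CPM in WT, 19.1, 18.7 and 12.9 in G245S, and 19.4, 17.8 and 13.3 in R273H. MT-TS2 (MT:12207-12265), one of 2 serine tRNAs, stood at 9.31 and 11.6 in WT, 10.8, 11.6 and 8.49 in G245S, and 11.2, 11.9 and 8.20 in R273H. MT-TL1 (MT:3230-3304), one of 2 leucine tRNAs, stood at 9.77 and 14.3 in WT, 18.8, 12.5 and 10.3 in G245S, and 12.8, 12.6 and 10.7 in R273H. The groups overlapped for each, and WT replicate 3 was the highest library, at 40.8 for MT-TH and 26.0 for MT-TS2. MT-TT (MT:15888-15953, threonine) stood at 9.19 and 13.2 in WT, 13.2, 11.3 and 8.37 in G245S, and 9.91, 12.3 and 8.08 in R273H. MT-TY (MT:5826-5891, tyrosine, − strand) stood at 6.21 and 9.51 in WT, 11.2, 8.25 and 6.16 in G245S, and 9.33, 7.11 and 5.82 in R273H. MT-TI (MT:4263-4331), the isoleucine tRNA printed above behind MT-ND1, stood at 3.22 and 6.04 in WT, 11.6, 12.1 and 5.66 in G245S, and 10.4, 6.97 and 3.68 in R273H. It had the largest log2 fold change of the tRNAs in G245S, 1.11 ± 0.32 (edgeR adjusted p = 0.471), though 1 G245S library lay within the WT range and WT replicate 3 stood above all others at 14.8. MT-TV (MT:1602-1670, valine), between the rRNAs, stood at 4.37 and 5.91 in WT, 6.93, 7.47 and 5.91 in G245S, and 5.88, 5.74 and 4.28 in R273H, and MT-TK (MT:8295-8364, lysine), ahead of MT-ATP8 and with every stretch of 50 bases also in a nuclear copy, at 4.25 and 5.52 in WT, 7.34, 5.54 and 4.19 in G245S, and 5.88, 4.10 and 4.52 in R273H.

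MT-TP (proline, − strand, MT:15956-16023) stood at 3.33 and 3.73 CPM in WT, 7.03, 3.22 and 8.49 in G245S, and 5.99, 3.28 and 2.02 in R273H, with G245S above WT in 2 of 3 libraries. Its log2 fold change was 0.85 ± 0.33 in G245S (edgeR adjusted p = 0.684) and 0.11 ± 0.35 in R273H. The median log2 fold change of the tRNAs tested was 0.24 in G245S (12 of 15 positive), 0.031 in R273H (10 of 14) and -0.22 between the mutants (2 of 15). The other tRNAs averaging 10 counts or more, MT-TC, MT-TF, MT-TM, MT-TW and MT-TE, had means of 1.45 to 4.52 CPM, and the 8 rarest had means of 0.084 to 1.16 CPM. MT-TL2, the other leucine tRNA and the neighbour of MT-TS2 in the printed cluster, was at 0 in 4 libraries once its fractional counts were rounded and in 2 before, MT-TR, arginine, in 3 and 2, and MT-TQ, glutamine, in 2 and 1. MT-TA and MT-TG came to 0 only by rounding, in 2 libraries and in 1. A count of 0 allows up to 3 counts, or 0.310 to 0.410 CPM in the 8 compared libraries and 2.02 CPM in WT replicate 3, for counting error only. These rare tRNAs were named after their values were seen. The 8 tRNAs of the − strand held 18.2% to 25.2% of tRNA counts. The share was 20.9% and 21.8% in WT, ran from 18.2% to 25.2% in G245S and from 18.5% to 21.1% in R273H, so the groups overlapped.

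Nuclear copies of mitochondrial genes, remnants of mitochondrial DNA inserted in the chromosomes, share sequence with the members, and multi-mapping reads were divided among equal matches. The table held 405 such copies, annotated as pseudogenes, of which 382 averaged under 1 count and 9 at least 10. Together they held 3.93% to 4.61% as many counts as the mitochondrial genes, and 99.1% of these lay in 7 copies on 1 stretch of chromosome 1 of 5861 bases (GRCh38, chr1:629062-634922). MTND1P23 averaged 8415 counts and held 45.8% to 58.4% as many counts as MT-ND1. MTCO3P12 averaged 2858, MTATP6P1 2712, MTCO1P12 2642 and MTND2P28 1556 counts. MTCO1P12 held 22.7% to 35.9% as many counts as MT-CO1, and the other 3 held 1.16% to 7.75% as many as their originals. Windows of 50 bases showed where reads of that length could not be told apart from this chromosome 1 stretch. The rest of the genome was not searched. For MT-CO1 49.4% of windows occurred unchanged in the chromosome 1 stretch, for MT-ATP6 46.7%, MT-ND2 43.6%, MT-CO3 30.6%, MT-CO2 29.0%, MT-ND1 22.1% and MT-ATP8 8.23%. No window of MT-ND3, MT-ND4L, MT-ND4, MT-ND5, MT-ND6, MT-CYB, MT-RNR1 or MT-RNR2 did. Among the tRNAs, every window of MT-TK, MT-TW, MT-TN, MT-TQ, MT-TA and MT-TS1 occurred there, so that counts of these 6 cannot be told apart from those of the copies by such reads. The share was 78.95% for MT-TD, 64.7% for MT-TC, 26.3% for MT-TM and 11.8% for MT-TY, and 0% for the other 12. Of the 333 member counts, 245 were not whole numbers, and MT-TP was the one gene with whole counts in every library. Genes without a window in the stretch had fractional counts too, in 9 libraries for MT-RNR2 and MT-TH, 8 for MT-RNR1 and MT-ND4 and 2 for MT-CYB. Where their shared reads matched was not tested. In WT replicate 3 MTND1P23 reached 58.4% of MT-ND1, against 45.8% to 49.3% in the other 8 libraries, and MTCO3P12 1.16% of MT-CO3, against 3.26% to 3.55%.

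The nuclear genes that transcribe, process and maintain mitochondrial DNA were described from a list of 53, all of which passed the filter in each comparison. None was called by edgeR or by DESeq2 in any comparison. At an unadjusted p under 0.05 there were 2 in G245S, 3 in R273H and 3 between the mutants, or 3.77%, 5.66% and 5.66% of the list, next to 6.66%, 6.11% and 4.75% of all genes. Their median log2 fold changes were -0.028, 0.017 and 0.040, next to all-gene medians of 0.0034, 0.0023 and -0.0048. TFAM, which packages mitochondrial DNA and is needed at its promoters, was at -0.25 ± 0.087 in G245S (edgeR adjusted p = 0.606) and -0.18 ± 0.083 in R273H (edgeR adjusted p = 0.807). POLRMT, the polymerase, was at 0.066 ± 0.089 in G245S and 0.13 ± 0.099 in R273H, and TFB2M, its initiation factor, at -0.015 ± 0.14 and 0.11 ± 0.16. LRPPRC and SLIRP, which stabilise mitochondrial mRNAs, were at 0.12 ± 0.085 and -0.00076 ± 0.13 in G245S and at 0.076 ± 0.088 and 0.0075 ± 0.11 in R273H. By role, the medians in G245S were 0.011 for the 6 transcription genes, -0.024 for the 11 processing genes, 0.00015 for the 8 stability and decay genes, -0.0017 for the 14 replication genes and -0.040 for the 14 genes of rRNA and tRNA modification.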

How the data were processed

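Stable HEK293T lines expressing WT, G245S or R273H p53 were sequenced in 3 biological replicates each. Cells were lysed and mRNA was converted to cDNA and tagmented. The authors trimmed reads with fastp 0.24.0, keeping those of at least 50 bases, aligned them to GRCh38 with STAR 2.7.11, collapsed molecular identifiers, and counted strand-specifically per gene with featureCounts (Subread 2.1.1). Multi-mapping reads were shared as fractions, so the deposited values are expected counts. How reads over 2 overlapping genes were assigned is not given in the sources used here. The table also holds 9 CPM columns made by the authors, which were left aside.

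Counts were rounded to whole numbers. The WT library with the lowest total was to be left out if under 0.5 times the median total of the other 8, which removed WT replicate 3. All genes passing filterByExpr were scaled by TMM and fitted in R 4.3.3 with edgeR 4.0.16 (glmQLFTest, its quasi-likelihood test). Adjusted p-values are Benjamini-Hochberg values over all genes tested, called under 0.05. DESeq2 1.42.0, other scalings, no filter, other choices of WT libraries, a replicate block and leaving out each library were alternatives. The scripts were tested on simulated data with known changes. Shares and ratios, 1 value per library, were compared by exact permutation tests in scipy 1.17.1. Replicates came from 1 line per p53 form, and p-values measure the spread between cultures of that line. A count of 0 was read as at most 3 counts, and such limits cover counting error only.

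All mRNAs and rRNAs are named. A tRNA is named with values when it averaged at least 10 counts, the 8 highest in full. From the list of nuclear genes for mitochondrial DNA expression and upkeep those called, and POLRMT, TFAM, TFB2M, LRPPRC and SLIRP, are named, and of nuclear copies the 5 with the highest mean count. The copy MTCO2P12 was added after its values were seen. The members and lists were chosen with earlier results of these data known. Sequences are from the GRCh38 reference, and gene positions were compared with GENCODE v44.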

Additional observations from a re-analysis of the deposited data

Results flagged for a closer look

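WT replicate 3, left out of the comparisons for its depth, held 7.02% of its counts on mitochondrial genes, above the 4.47% and 5.71% of the other WT libraries and within the 4.83% to 8.34% of the mutant libraries. Of the 15 mRNAs and rRNAs, 14 stood above both other WT libraries in CPM, MT-CO2 being the exception, as did 16 of the 22 tRNAs. Its 1486315 counts compare with 7325514 or more in every other library. Epithelial markers were also at their highest there, KRT18 at 154 CPM against 56.9 to 69.5 in the other 8 libraries, KRT8 at 52.5 against 9.40 to 12.4, KRT19 at 32.6 against at most 1.33 and EPCAM at 13.5 against at most 3.41. The part of depth, sample quality or these markers in its mitochondrial share was not tested.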

How the results depend on the processing

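The counts of called genes, medians, shares and ratios were recomputed in 146 cases, of which 137 kept the count within 1.5 times or moved by less than the spread between libraries. That spread was wide, at 0.25 for the median of the 13 mRNAs and 1.19 percentage points for the share. With all 3 WT libraries the G245S median thus went from 0.44 to 0.19 within it. The R273H difference in share changed sign within it, from 0.555 to -0.088 points. The 9 cases beyond these limits were as follows, with those of the replicate block given further below. Without the filter on low counts 10 mitochondrial genes were called in G245S against WT and 2 in R273H against G245S. With WT replicates 2 and 3 the share of counts differed by 0.41 percentage points for G245S and -0.72 for R273H, and the median of the 13 mRNAs was 0.030 and -0.17. With WT replicates 1 and 3 the median for G245S was 0.15. Upper quartile scaling, scaling from nuclear genes, DESeq2 and 1 fit of the 3 groups left each count of called genes at 0. The fold changes of the 15 mRNAs and rRNAs were recomputed in 600 cases: 518 kept their sign and call, 21 became called (without the filter or with the replicate block), and 61 changed sign. None of those was called. The values that changed sign were as follows, on the log2 scale. For G245S with all 3 WT libraries they were MT-ND4L -0.0019 and MT-ND5 -0.031, with WT replicates 1 and 3 MT-ND4L -0.0064 and MT-ND5 -0.11, and with WT replicates 2 and 3 MT-CO1 -0.0057, MT-ND4L -0.14, MT-ND5 -0.20, MT-ND6 -0.040, MT-RNR1 -0.13 and MT-RNR2 -0.012. For R273H with all 3 WT libraries they were MT-ATP6 -0.028, MT-CO1 -0.083, MT-CYB -0.050, MT-ND3 -0.012, MT-ND4 -0.013, MT-ND4L -0.10 and MT-ND5 -0.24, with WT replicates 1 and 3 MT-ATP6 -0.094, MT-CO1 -0.017, MT-CO3 -0.030, MT-CYB -0.078, MT-ND2 -0.092, MT-ND3 -0.091, MT-ND4 -0.042, MT-ND4L -0.11 and MT-ND5 -0.32, and with WT replicates 2 and 3 MT-ATP6 -0.17, MT-CO1 -0.28, MT-CO3 -0.10, MT-CYB -0.19, MT-ND1 -0.090, MT-ND2 -0.14, MT-ND3 -0.16, MT-ND4 -0.16, MT-ND4L -0.24, MT-ND5 -0.41 and MT-ND6 -0.24. The cause was not tested.

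Leaving out each library in turn left every count of called genes at 0. The median of the 13 mRNAs ranged from 0.25 to 0.54 for G245S, -0.0035 to 0.32 for R273H and -0.37 to -0.095 between the mutants. The differences in share ranged from 0.89 to 2.30, -0.061 to 1.17 and -1.74 to -0.34 percentage points, and those in the rRNA ratio from -0.26 to -0.088, -0.34 to -0.17 and -0.12 to -0.0042. The MT-ND6 ratio took both signs in each comparison. Genes that changed sign were, in G245S, MT-RNR1 -0.0037 to 0.59, in R273H MT-ATP8 -0.44 to 0.019, MT-CO1 -0.20 to 0.42, MT-CO2 -0.030 to 0.28, MT-CYB -0.0035 to 0.29, MT-ND4L -0.095 to 0.17, MT-ND5 -0.069 to 0.17, MT-ND6 -0.027 to 0.62, MT-RNR1 -0.29 to 0.31 and MT-RNR2 -0.23 to 0.11, and between the mutants MT-ATP8 -0.036 to 0.63, MT-ND2 -0.32 to 0.0014, MT-ND4L -0.27 to 0.011 and MT-ND6 -0.49 to 0.12. These ranges include fits with 1 WT library, which is assumed to vary like the other group.

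Over all genes, libraries with the same replicate number mostly did not deviate together. The correlations of their deviations from the group means ran from -0.18 to 0.27, and 2 of 9 were over 0.1. Both were between G245S and R273H, in replicates 1 and 2, where replicate 3 gave -0.037. The numbers were therefore not taken as pairs. In both mutants, though, the log2 library median of the mitochondrial mRNAs and rRNAs, relative to compared WT, fell from replicate 1 to 3. It stood at 0.62, 0.39 and 0.032 in G245S and at 0.41, 0.089 and -0.072 in R273H. In WT it rose, at -0.15, 0.15 and 0.60. Whether the shared order of the mutants reflects pairing was not tested. With the replicate block 2 mitochondrial genes were called in G245S against WT (MT-ND6 and MT-TI, higher), 0 in R273H against WT and 9 in R273H against G245S (7 mRNAs and both rRNAs, lower), and MT-RNR1 and MT-RNR2 changed sign in R273H against WT, to 0.11 and 0.034. Over all genes the block gave 76, 47 and 59 calls, against 20, 22 and 0 without it. Depth limits the tRNAs most, since 8 of 22 averaged under 10 counts.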
